A study of Mus musculus with 12 samples.

Results

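The genes described here are those that lie off chromosome 1, and the comparison is that of Sgpp2-/- mice (KO) with wild-type mice (WT), averaged over both diets. Sgpp2 itself lies on chromosome 1, so that leaving this chromosome out keeps the segment around the targeted allele out of the comparison. Of 15237 genes tested, 14252 lay on another known chromosome; 880 lay on chromosome 1 and 105 had no known location. The filter on dim genes removed 2721 of the 16973 genes off chromosome 1 that had a probe set of their own. All mice were of the strain C57BL6. The 4 groups, of 3 arrays each, were WT on the normal diet, Sgpp2-/- on the normal diet, WT on the high-fat diet and Sgpp2-/- on the high-fat diet, which gave 6 KO arrays against 6 WT arrays with diet as a covariate. Single arrays are named by genotype, diet and replicate number, with N for the normal and H for the high-fat diet (KO-H3 is the KO high-fat array numbered 3).

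Sgpp2 encodes sphingosine-1-phosphate phosphatase 2, which resides in the endoplasmic reticulum and turns sphingosine-1-phosphate back into sphingosine. Sphingosine-1-phosphate acts both as a ligand of cell surface receptors and inside cells, and the sphingosine released from it can be recycled into ceramide. The related phosphatase Sgpp1 carries out the same reaction. In β-cells, which make and fold very large amounts of proinsulin, the balance of these lipids has been tied to endoplasmic reticulum stress, survival and division, which are also the subjects named in the title of the series. The title names pancreatic islets, whereas the labels of the samples name no tissue. On a log2 scale, where 1 unit is a doubling, the hormone genes Ins2, Gcg and Sst averaged 14.57, 14.40 and 14.27 over the 12 arrays. The enzyme genes Ctrb1 and Cpa1 of acinar cells, the digestive enzyme cells that surround islets, averaged 14.63 and 13.97, so both tissues of the pancreas were represented at bright signal. The fat cell gene Adipoq averaged 3.53. In whole tissue RNA of this kind, fewer cells of a type and less RNA per cell cannot be told apart.

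The targeted gene separated the genotypes: Sgpp2 lay between 11.46 and 11.63 in the WT arrays and between 10.99 and 11.17 in the KO arrays (difference −0.46, SE 0.05, limma adjusted p = 0.00174). The KO signal was lower but still bright, so this probe set does not show the RNA to be absent. Some measures of the arrays themselves moved with genotype. Along the first principal component, with 27.1% of the variance, the KO arrays scored from 2.36 to 26.21 and the WT arrays from −21.08 to 6.51. WT-H2 had the score 6.51, inside the KO range, and KO-H3 the score 26.21. The β-actin 3' control signal was lower on every KO array (11.96 to 12.24) than on every WT array (12.27 to 12.44), and the 18S control read 12.09 to 12.96 in KO and 12.83 to 13.40 in WT. The 3' minus 5' difference of β-actin, a measure of how intact the RNA was, overlapped (2.17 to 2.49 in KO, 2.27 to 2.45 in WT). That of Gapdh was 1.71 in WT-H3 and between 1.08 and 1.23 on every other array. The part of these measures in the results was not tested. Nothing in the labels says that each array is from an animal of its own. The p-values therefore measure only the spread among these samples, and that spread may be technical.

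The Sgpp2-/- genotype went with many small differences. Off chromosome 1, 562 genes rose in KO and 537 fell at a Benjamini-Hochberg adjusted p under 0.05 (limma), which is 3.94% and 3.77% of the genes tested and 7.71% together. The median size of a change was 0.33 on the log2 scale, with quartiles of 0.26 and 0.41, and 969 of the 1099 changes were smaller than 0.5. More than 2-fold changes were found in 6 genes, all of which rose: Zfp982, Matn2, Prss23, Cttnbp2, Iigp1 and Tmed11. The KO and WT arrays did not overlap within either diet, in 1 direction, for 718 of the 1099 genes and for 1033 of all 14252 (7.25%). All 6 KO arrays lay beyond all 6 WT arrays, whatever the diet, for 539 of the 1099 and for 694 of all 14252 (4.87%). On chromosome 1 the same fit called 111 of 880 genes (12.6%), 40 up and 71 down. Over all genes off chromosome 1 the median difference was −0.042.

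The count of changed genes rested on how the arrays were treated. Same-numbered KO arrays of both diets deviated together, and when they were paired as a random block the count was 462 (3.24%), 304 up and 158 down; all 462 were among the 1099. Without WT-H2 the count was 2402, and without KO-H3 it was 484. Leaving out another single array gave between 314 (without WT-N1) and 1152 (without KO-H1). The counts were 336 without KO-N3, 449 without WT-N3, 478 without WT-H3, 567 without KO-N1, 573 without WT-H1 and 600 without KO-N2. Without both of the arrays that stood apart on the first component, a setting chosen after the data were seen, 1850 genes were called. The balance of rises and falls followed the scaling: 51.1% of the changed genes rose with the values as deposited, 70.2% after cyclic loess between arrays and 82.2% after each array was centred on its median, while the median of all genes was −0.015 and 0.011 in these 2 settings.

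**Figure D1:**
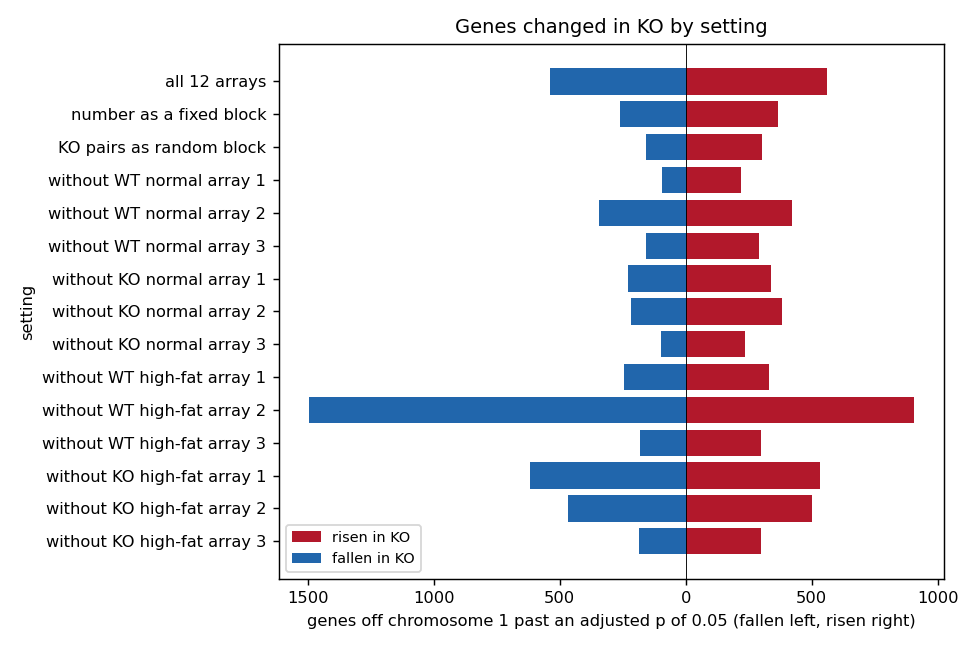
Number of genes off chromosome 1 that rose (red, right) or fell (blue, left) in KO at an adjusted p under 0.05, with all 12 arrays, with the replicate number or the KO pairs as a block, and with each array left out. With all arrays 562 rose and 537 fell; the bar without WT-H2 reaches 907 and 1495, and the bar without WT-N1 only 221 and 93.

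The averaged comparison called more genes than either diet alone, where fewer arrays enter each contrast. On the normal diet 108 genes off chromosome 1 passed (0.758%; 69 up, 39 down) and on the high-fat diet 1 gene (0.00702%), the helicase subunit gene Mcm4. The difference of the knockout effect between the diets was tested as an interaction in limma and 0 genes passed; 713 had an unadjusted p under 0.05, and the smallest adjusted p was 0.722.

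Among the genes that rose most, Matn2 had the smallest adjusted p of those named. Matn2 encodes matrilin-2, an adaptor protein of the extracellular matrix. Its WT arrays read 9.07 at the lowest, 9.68 at the median and 9.94 at the highest, and its KO arrays 10.46, 10.59 and 11.25. Every KO array was above every WT array, and the gene rose 2.22-fold (log2 1.15, SE 0.11, adjusted p = 0.000834), by 1.13 on the normal and 1.17 on the high-fat diet. Its only other probe set was higher by 0.21.

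Prss23, a secreted serine protease, read 7.39, 7.68 and 7.99 in WT (lowest, median, highest) and 8.45, 8.90 and 9.03 in KO. The genotypes did not overlap, and the rise was 2.19-fold (log2 1.13, SE 0.13, adjusted p = 0.00174). Its 2 other probe sets were higher in KO too, by 0.22 and 0.45. Cttnbp2, a cortactin-binding protein of neuronal spines, rose 2.18-fold (log2 1.12, SE 0.20, adjusted p = 0.0101), with WT arrays at 8.67, 9.14 and 9.53 and KO arrays at 9.80, 10.14 and 10.97. The other probe set of Cttnbp2 differed by −0.12.

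Zfp982, a zinc finger gene on chromosome 4, showed the largest rise of all changed genes, 2.41-fold (log2 1.27, SE 0.17, adjusted p = 0.00306). WT arrays lay at 6.93, 7.21 and 7.71 and KO arrays at 8.20, 8.47 and 8.98, without overlap. Its 2 other probe sets read −0.18 and 0.33. The next gene along the chromosome, Zfp979, named here after its values were seen, rose by 0.74 (SE 0.14, adjusted p = 0.0124). Both belong to a cluster of near-identical zinc finger genes, and the array may not tell these copies apart.

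Trim23, a RING finger protein with an ARF-like domain, rose from a WT median of 10.09 (9.89 to 10.49) to a KO median of 10.99 (10.81 to 11.06; log2 0.83, SE 0.10, adjusted p = 0.0019). Its other probe set was higher by 0.36. Hspa14, a ribosome-associated Hsp70-like chaperone, rose by 0.80 (SE 0.10, adjusted p = 0.00178) from a WT range of 9.64 to 10.31 to a KO range of 10.47 to 11.29. Its other probe sets, at −0.14 and −0.03, did not share the rise. The remaining large rises, in order, were Cntn3 (contactin-3, a neural adhesion protein; 0.94), Defa31 (an α-defensin with close copies; 0.90), Tmem64 (0.83), Serpinb1a (an inhibitor of neutrophil proteases; 0.81), Rbm12b2 (0.77), Hps5 (a subunit of a complex for lysosome-related organelles; 0.75), Zfp2 (0.74) and Ppif (cyclophilin D of the mitochondrial permeability pore; 0.74). Of these, Serpinb1a lost its call with the KO pairs as a block (adjusted p = 0.0794). It also lost it in 7 of the 12 fits that left out 1 array (adjusted p = 0.057 to 0.0948), keeping it without KO-N3, WT-H1 or WT-H2, or KO-H1 or KO-H2, and its differences were 1.17 on the normal and 0.45 on the high-fat diet.

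Among the genes that fell, Sesn2 encodes sestrin-2, a stress-induced inhibitor of mTORC1 and a target of the ATF4 arm of the unfolded protein response. WT arrays read 9.40, 9.61 and 9.75 and KO arrays 8.76, 9.03 and 9.26. All KO arrays were below all WT arrays, and the difference was −0.59 on the log2 scale (SE 0.07, adjusted p = 0.00178). The related Sesn1, a p53 target chosen after its values were seen, moved the other way: WT arrays spanned 10.57 to 11.02 and KO arrays 11.30 to 11.79 (log2 0.70, SE 0.10, adjusted p = 0.00368). The other probe sets of Sesn1 lay between −0.17 and 0.04, and that of Sesn2 at −0.11.

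Tmprss2, a transmembrane serine protease of epithelial cells, fell 1.60-fold (log2 −0.68, SE 0.11, adjusted p = 0.00574), from 10.71, 10.97 and 11.19 in WT to 9.97, 10.25 and 10.57 in KO. Its other probe sets were lower as well, by −0.43 and −0.25. Gp5, a platelet glycoprotein, read 7.98 to 8.28 in WT and 7.52 to 7.77 in KO, again without overlap (log2 −0.54, SE 0.07, adjusted p = 0.00178). Hpgd, the enzyme that inactivates prostaglandins, read 8.59, 8.63 and 8.81 in WT and 7.77, 8.16 and 8.41 in KO (log2 −0.57, SE 0.10, adjusted p = 0.00957). Its differences were −0.34 on the normal and −0.81 on the high-fat diet, a gap that was not called, and its other probe set was lower by −0.42. Cd86, a costimulatory molecule of antigen-presenting cells, fell by 0.54 (SE 0.11, adjusted p = 0.0193), with −0.29 on the normal and −0.78 on the high-fat diet; its other probe set differed by 0.01.

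Cap1, a regulator of actin turnover, fell by 0.72 on the log2 scale, the largest fall among the named genes (SE 0.15, adjusted p = 0.0197). WT arrays ranged from 9.68 to 10.68 and KO arrays from 9.06 to 10.06, so the genotypes overlapped over both diets although not within either. Its other probe set gave −0.68, and the call was lost only without WT-N1 (adjusted p = 0.0531). Pfn1, profilin-1, another actin-binding protein and chosen after its values were seen, fell by 0.48 (SE 0.08, adjusted p = 0.00783) with no overlap between KO (10.71 to 10.92) and WT (11.06 to 11.57). Other large falls were in Csnk1e (casein kinase 1ε; −0.70), Zfp941 (−0.64), Ttc5 (−0.63), Taf15 (an RNA-binding protein; −0.60), Dact3 (−0.58), Nnat (neuronatin; −0.55), Narf (−0.55), B3gat1 (−0.54) and Frg2f1 (−0.53). The calls of Csnk1e, Ttc5 and Dact3 were lost with the KO pairs as a block (adjusted p = 0.0513, 0.0535 and 0.0587). Those of Csnk1e, Ttc5, Dact3 and B3gat1 were each lost in 4 to 6 of the fits without 1 array, in every case without WT-N1, WT-N3 or KO-N3 among others (adjusted p = 0.0513 to 0.0773).

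**Figure D2:**
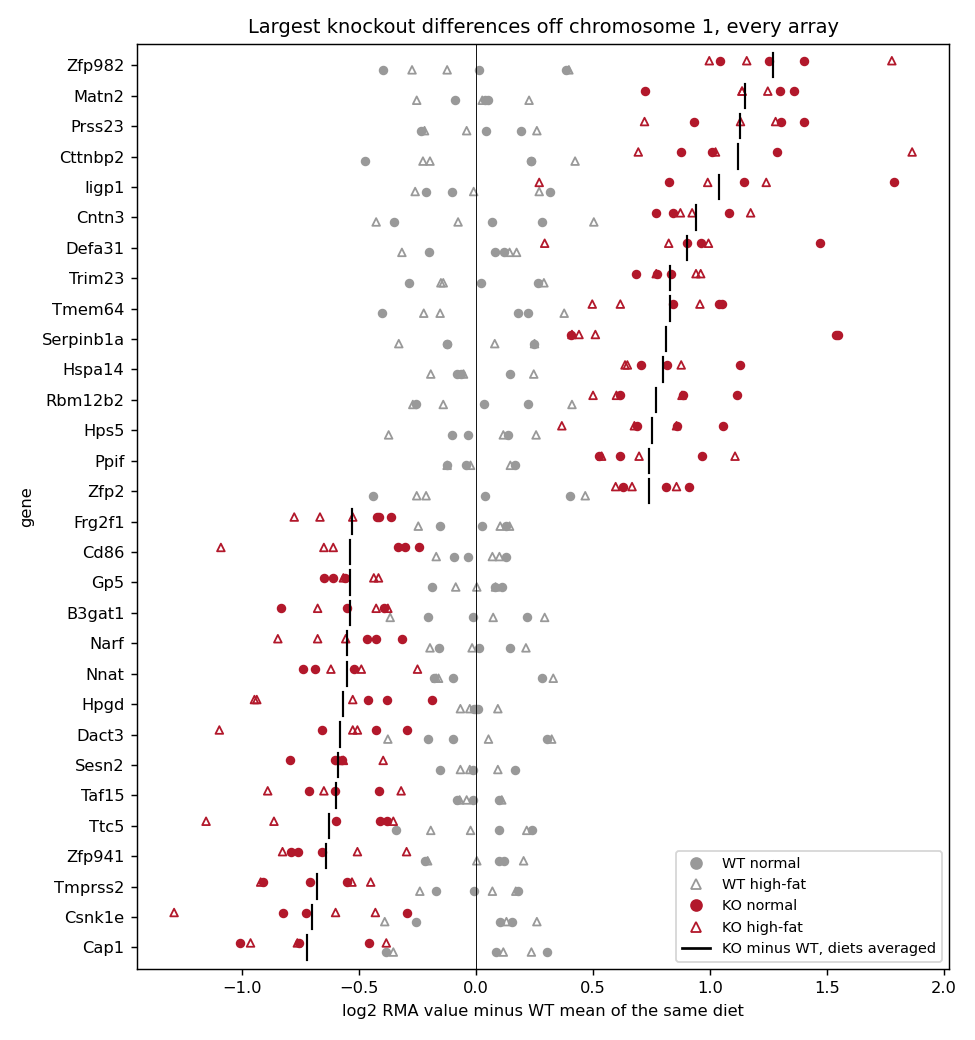
Every array's log2 RMA value for the 15 largest rises and 15 largest falls chosen by rule, given as the difference from the WT mean of the same diet (grey WT, red KO; circles normal diet, triangles high-fat diet); the black bar is the KO minus WT difference averaged over diets. The red points of Matn2 and Prss23 lie apart from the grey ones on both diets, with averages of 1.15 and 1.13. For Serpinb1a, KO-N1 and KO-N2 lie far to the right of the KO high-fat arrays, while KO-N3 does not.

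Of 38 measured members of sphingolipid metabolism off chromosome 1, 3 rose and 2 fell (13.2%, where 7.71% of all genes off chromosome 1 were called), and the list's median was −0.06 against −0.042 for all genes. Among the phosphatases and ceramidases, Sgpp1 shares its reaction with the enzyme of the targeted gene and was added after its values were seen. It read 11.95, 12.07 and 12.23 in WT and 12.24, 12.38 and 12.40 in KO. The lowest KO array was just above the highest WT array, and the rise was 0.29 (SE 0.06, adjusted p = 0.0192). Its further probe sets ranged from −0.07 to 0.51. Acer2, a Golgi ceramidase that releases sphingosine from ceramide, rose by 0.37 (SE 0.08, adjusted p = 0.0198); its other probe set was higher by 0.34, and the call was lost only without KO-N3 (adjusted p = 0.0525).

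The other changed sphingolipid genes did not keep their calls with the KO pairs as a block. Sgms2, a sphingomyelin synthase, rose by 0.29 (adjusted p = 0.0462, and 0.0804 with the block). Sptlc2, part of the serine palmitoyltransferase complex that makes the first intermediate of sphingolipids, fell by 0.30 (adjusted p = 0.0293, and 0.0542 with the block). Mfsd2b, the sphingosine-1-phosphate exporter of red cells and platelets, fell by 0.30 (adjusted p = 0.034, and 0.0618 with the block). Leaving out 1 array ended these calls in 10, 8 and 7 of 12 fits, in all cases without WT-N3, KO-N3, WT-H1 or WT-H3, or KO-H3.

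The unfolded protein response is the programme that protein misfolding in the endoplasmic reticulum sets off. Of 42 measured members, 2 rose and 1 fell (7.14%, against 7.71% of all genes), 19 had a higher mean in KO, and the median was −0.02 (0.03 on the normal and −0.04 on the high-fat diet). The fall was that of Sesn2. Derl1, derlin-1 of the channel that exports misfolded proteins for degradation, read 12.48 to 12.65 in WT and 12.82 to 12.98 in KO, without overlap (log2 0.30, SE 0.05, adjusted p = 0.00595), while its further probe sets lay between −0.12 and −0.04. Canx, the chaperone calnexin, rose by 0.19 (SE 0.05, adjusted p = 0.0334), with WT arrays at 13.04 to 13.23 and KO arrays at 13.30 to 13.36; with the block the adjusted p was 0.0615, and the call was lost in 10 of the 12 fits without 1 array, held only without WT-H2 or KO-H1.

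Among cell cycle genes, a helicase subunit and a cyclin rose. Of 38 members of DNA replication, 2 rose and 0 fell (5.26%, against 7.71% of all genes), with a median of −0.07. Mcm4, a subunit of the replicative helicase, read 9.21, 9.64 and 9.77 in WT and 10.04, 10.29 and 10.39 in KO. All KO arrays were above all WT arrays, and the rise was 1.63-fold (log2 0.71, SE 0.08, adjusted p = 0.00178), by 0.57 on the normal and 0.84 on the high-fat diet. Ccne2, cyclin E2, which drives entry into S phase, read 9.19, 9.39 and 9.72 in WT and 9.80, 10.02 and 10.12 in KO (log2 0.56, SE 0.10, adjusted p = 0.00742). Mcm4 had 1 more probe set, with a difference of 0.07, and Ccne2 had no other. The kinase gene Cdk2, which cyclin E activates, fell by 0.41 (SE 0.11, adjusted p = 0.0407), a call lost with the block (0.0675) and in 7 of the fits without 1 array, though not without WT-N2, WT-H1 or WT-H2, or KO-H1 or KO-H3.

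Of 31 measured genes of mitosis, 0 passed, although 25 had a higher mean in KO and their median was 0.11. The median was −0.23 on the normal and 0.46 on the high-fat diet. As the mean of its members, each taken relative to its mean over all arrays, this list read 1.22 in KO-H3 and at most 0.36 in the other KO arrays. In WT it was highest, at 0.39, in WT-N1, which exceeded every KO array but KO-H3. Histone genes of S phase gave 0 calls among 6.

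Of 27 β-cell transcription factors and identity genes, 2 rose and 2 fell (14.8%, against 7.71% of all genes), with a median of 0.02. Insm1, a zinc finger factor of endocrine differentiation, read 11.01 to 11.39 in WT and 11.54 to 11.82 in KO (log2 0.44, SE 0.06, adjusted p = 0.00509), yet its other probe set was lower by −0.44. Tshz1 rose by 0.29 (SE 0.05, adjusted p = 0.00915), and here too the other probe set was lower, by −0.35. Nkx6-1, a homeobox factor that maintains the β-cell state, differed by −0.36 (adjusted p = 0.0483, and 0.0756 with the block), and Foxa2, a forkhead factor of endoderm, by −0.26 (0.0486, and 0.0843 with the block). Without 1 array these calls were lost in 9 and 11 of 12 fits; that of Foxa2 held only without WT-H2, and that of Nkx6-1 only without WT-H2, KO-H1 or KO-H2.

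The hormones, granules and release machinery showed few changes. Ins2 read 14.50, 14.63 and 14.71 in WT and 14.36, 14.51 and 14.70 in KO (log2 −0.09, SE 0.07, adjusted p = 0.358), and the glucose transporter gene Slc2a2 differed by −0.07 (SE 0.05, adjusted p = 0.386). Of 12 other hormone genes and 14 granule proteins 0 passed. Of 25 genes of the secretion machinery (4.00% called) only Kcnma1, the BK potassium channel, did (0.29, adjusted p = 0.0283, and 0.0577 with the block). Its 4 further probe sets ranged from −0.48 to 0.43. Of 11 genes of GABA and glycine signalling, 2 rose and 2 fell (36.4%, against 7.71% of all genes). Gad1, which makes GABA, rose by 0.35 (SE 0.07, adjusted p = 0.016), from a WT median of 11.40 (11.29 to 11.58) to a KO median of 11.78 (11.56 to 11.91). Glrb, Glra1 and Slc6a6 differed by 0.32, −0.61 (−0.93 on the normal and −0.28 on the high-fat diet) and −0.24, and their calls were lost with the block (adjusted p = 0.0574, 0.0682 and 0.0626). Glra1 was dim, at 5.25 to 6.08 in WT and 4.68 to 5.48 in KO, near the filter at 5.

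Genes of mitochondria and fuel use were called in both directions. In fatty acid oxidation, with 31 members, 1 rose and 3 fell (12.9%), and the median was −0.11. Hadhb, the β subunit of the mitochondrial trifunctional protein, read 11.66, 11.97 and 12.15 in WT and 12.30, 12.48 and 12.63 in KO and rose without overlap (log2 0.54, SE 0.07, adjusted p = 0.00335). Its 2 other probe sets differed by −0.13 and 0.00. The electron carriers Etfa and Etfb and the reductase Decr1 fell by 0.29, 0.26 and 0.25, with adjusted p-values of 0.0392, 0.0455 and 0.0488 that became 0.0742, 0.0729 and 0.0885 with the block. In oxidative phosphorylation, with 31 members, 2 rose (6.45%): Uqcrb of complex III by 0.41 (SE 0.05, adjusted p = 0.00306; 13.06 to 13.33 in WT, 13.46 to 13.76 in KO) and Atp5o of the ATP synthase by 0.19 (adjusted p = 0.0274, and 0.0523 with the block). In glycolysis and the TCA cycle, with 24 members (16.7% called), Mdh1 rose by 0.22 (adjusted p = 0.0256; lost in 7 of the 12 fits without 1 array, at 0.052 to 0.0653), and Idh2, Pfkl and Pfkm fell by 0.43, 0.38 and 0.30 (adjusted p = 0.0321, 0.0444 and 0.0451; 0.0587, 0.0759 and 0.0762 with the block).

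Of 28 antioxidant and glutathione genes, 2 rose and 1 fell (10.7%). Cat, catalase, rose by 0.48 (SE 0.08, adjusted p = 0.00933), from a WT median of 10.31 (10.15 to 10.60) to a KO median of 10.83 (10.56 to 11.01), and its other probe set rose alongside by 0.42. Gclm, the modifier subunit of the enzyme that limits glutathione synthesis, fell by 0.46 (SE 0.09, adjusted p = 0.0138), with WT arrays at 10.52 to 11.09 and KO arrays at 10.04 to 10.38; its other probe set differed by 0.03. Nnt, the mitochondrial transhydrogenase, rose by 0.36 (SE 0.06, adjusted p = 0.00675); its WT arrays read 12.72 to 13.05 and its KO arrays 13.16 to 13.26, and its 2 other probe sets differed by 0.05 and 0.07. Nnt is known to differ between substrains of C57BL6 mice, and the labels give no substrain. In lipid synthesis Stard4, a cholesterol carrier, fell by 0.32 (adjusted p = 0.0218; lost without WT-N1 or KO-N3, at 0.0568 and 0.0574), while Elovl1 and Acss2 differed by −0.24 and 0.22 and lost their calls with the block (0.0804 and 0.0587).

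Of 34 measured interferon response genes 3 rose and 0 fell (8.82%, against 7.71% of all genes), 25 had a higher mean in KO, and the median was 0.11. Iigp1, an interferon-induced GTPase, read 6.31, 6.83 and 7.36 in WT and 7.35, 7.87 and 8.33 in KO. Of the 6 KO arrays, 5 were above every WT array, and the rise was 2.06-fold (log2 1.04, SE 0.20, adjusted p = 0.0141); its other probe set was higher by 0.54. Ifit1, an antiviral RNA-binding protein, read 7.66, 8.10 and 8.69 in WT and 8.47, 8.74 and 9.62 in KO, with overlap (log2 0.76, SE 0.19, adjusted p = 0.0357, and 0.0579 with the block). Gbp3, a guanylate-binding protein, rose by 0.56 (SE 0.15, adjusted p = 0.0454, and 0.0865 with the block), from 7.37, 7.76 and 8.03 to 7.93, 8.29 and 8.68. Without 1 array Ifit1 lost its call in 8 of 12 fits and kept it without WT-N2, WT-H2, or KO-H1 or KO-H2; Gbp3 kept it only without KO-N2 or WT-H2. The chemokine Cxcl10 differed by 1.57 (SE 0.51, adjusted p = 0.0734), more than any gene that passed. The receptor gene Ifnar2, on the receiving side of type I interferon and named after its values were seen, fell by 0.44 (SE 0.07, adjusted p = 0.00742), with no overlap between WT (10.23 to 10.59) and KO (9.91 to 10.16).

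The promoters of Ifit1 and Gbp3 are shown because interferon-responsive genes are known to carry a shared element, searched here on both strands as GAAA, any 2 bases, and GAAA again. The 120 bases before the start of each gene, taken from RefSeq (GRCm38.p6, plus strand), are printed 5′ to 3′ with the matches in capitals. They lie at chr19:34640769-34640888 for Ifit1 and chr3:142559924-142560043 for Gbp3. For each gene the first promoter entry that held a match was printed.
Ifit1: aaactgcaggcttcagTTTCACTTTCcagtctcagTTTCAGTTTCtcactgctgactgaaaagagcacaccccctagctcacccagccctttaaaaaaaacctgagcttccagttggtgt
Gbp3: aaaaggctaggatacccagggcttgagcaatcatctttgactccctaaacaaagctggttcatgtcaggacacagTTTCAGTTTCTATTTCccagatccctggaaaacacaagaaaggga
Each holds 2 matches, read on the minus strand; they begin 104 and 85 bases before the start of Ifit1 and 45 and 39 bases before that of Gbp3, where they overlap. Of 25 tested interferon list genes with a RefSeq promoter, 17 (68%) held a match within the 300 bases around a start. Counted the same way, 1079 of all 27025 genes with a promoter did (3.99%). Counted per promoter, 1131 of 32851 did (3.44%). A match describes the letters only.

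**Figure D3:**
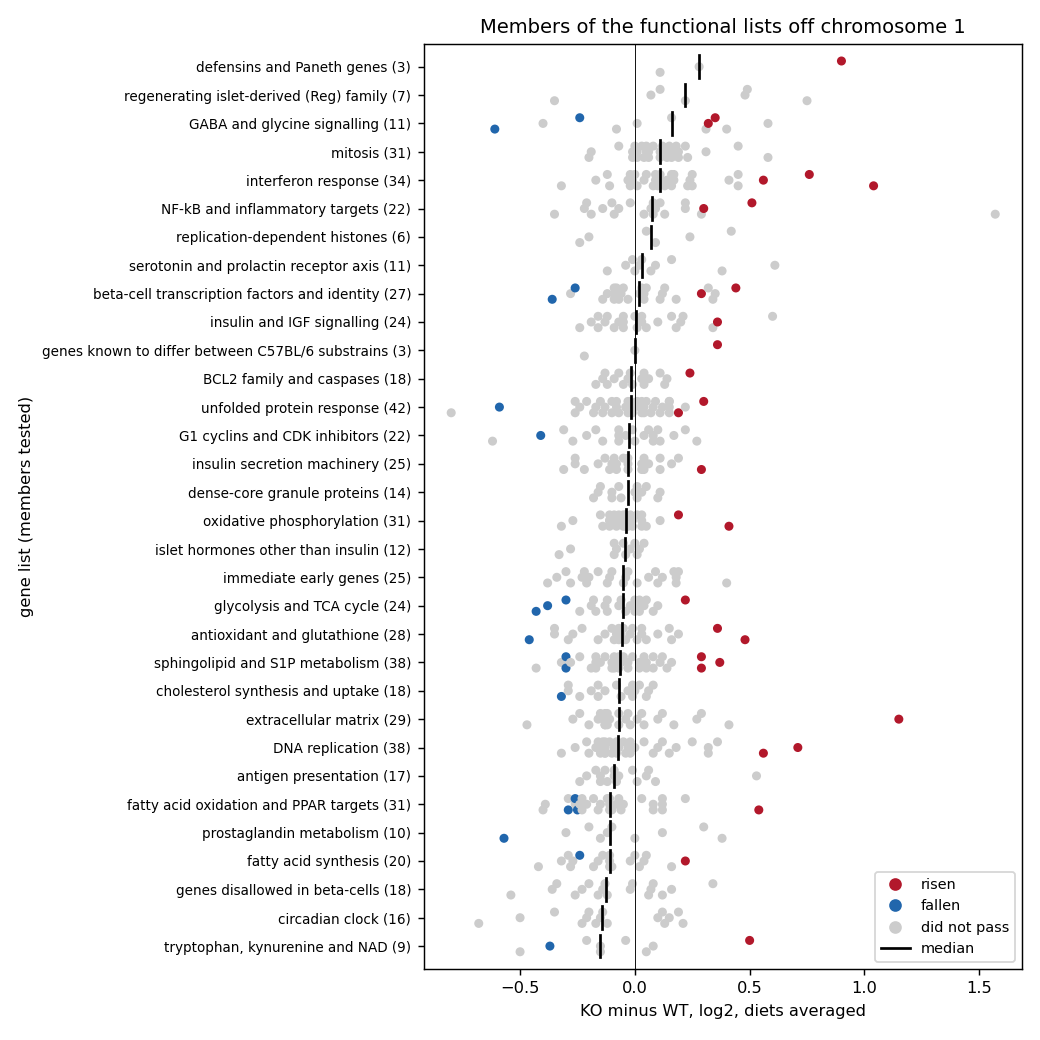
KO minus WT difference on the log2 scale, averaged over diets, for every measured member of the 32 functional lists off chromosome 1 (red risen, blue fallen, grey did not pass; the black bar is the list's median, and the number of members tested stands in brackets). List medians lie between −0.15 for tryptophan metabolism and the clock and 0.28 for the 3 defensin and Paneth genes; most points of every list are grey.

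In inflammation, 2 of 22 measured NF-kB targets rose and 0 fell (9.09%, against 7.71% of all genes). Cxcl1, a neutrophil chemokine, rose by 0.51 (SE 0.10, adjusted p = 0.0157), with WT arrays at 5.63 to 6.04 and KO arrays at 5.97 to 6.58. Nfkb2 rose by 0.30 (adjusted p = 0.0349, and 0.0675 with the block). Of 25 immediate early genes, 17 genes of antigen presentation, 16 clock genes, 18 genes disallowed in β-cells, 11 of the serotonin and prolactin axis and 7 of the Reg family, 0 passed. Of 18 cell survival genes Mcl1 rose (0.24, with 5.56% of the list called), and of 24 growth factor signalling genes Igfbp3 (0.36, with 4.17% called). Of 29 matrix genes Matn2 rose (3.45% called), and of 9 genes of the tryptophan list Nmnat3 (0.50, with 22.2% called). The last list also held a fall in Tdo2, the dioxygenase that opens the tryptophan ring (−0.37). Of these, Mcl1 and Tdo2 lost their calls with the block (adjusted p = 0.065 and 0.0614). Igfbp3 lost its call without WT-N3, KO-N3 or WT-H3 (adjusted p = 0.0512 to 0.0584), and Nmnat3 without WT-N1, KO-N3 or WT-H3 (0.0508 to 0.0594).

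Markers of other cells of the islet and its surroundings differed between the genotypes in some lists. All 15 measured acinar markers had a higher mean in KO (median 0.14, 0 called), by a median of 0.28 on the normal and 0.05 on the high-fat diet. Their level, averaged over the members and taken relative to the mean of all arrays, ran from −0.45 to 0.13 in WT and from −0.13 to 0.40 in KO. The lowest WT level was that of WT-H2, and the highest KO levels were those of KO-N1 (0.35) and KO-N2 (0.40). On the high-fat diet KO arrays read −0.13 to −0.04, WT-H1 0.10 and WT-H3 −0.03. Of 12 endothelial markers 3 fell and 0 rose (median −0.22; averaged level −0.06 to 0.20 in WT, −0.16 to 0.05 in KO): Pecam1 by 0.50, Egfl7 by 0.25 and Kdr by 0.23. Of 12 macrophage and dendritic markers 2 fell and 0 rose (16.7%, against 7.71% of all genes), with a median of −0.24. Their averaged level ran from −0.09 to 0.28 in WT and from −0.45 to 0.03 in KO. The value of −0.45 was that of KO-H3, and the other KO arrays lay between −0.10 and 0.03. Cx3cr1, the fractalkine receptor, fell by 0.47 (−0.72 on the normal and −0.22 on the high-fat diet) and the complement gene C1qa by 0.33. None of these 5 calls held with the KO pairs as a block, where the adjusted p-values lay between 0.0538 for Pecam1 and 0.0953 for Kdr. Leaving out KO-N2 or KO-N3, WT-H1 or KO-H3 ended each of them. The β-cell markers gave 1 fall of 7 (Nkx6-1, 14.3%), and the alpha-cell, delta-cell and B-cell markers 0 calls of 6 each. The mean was higher in KO for 1 alpha-cell, 0 delta-cell and 0 B-cell markers (medians −0.08, −0.15 and −0.23). Of 9 T and NK markers 0 were called and 8 had a higher mean (median 0.11). Of 9 stellate, fibroblast and pericyte markers 1 rose (11.1%, median −0.01). This was Pdgfrb, by 0.34 (adjusted p = 0.0251, and 0.0504 with the block), with its other probe set at −0.11. The part of these markers in the changes of other genes, Cd86 and the matrix genes included, was not tested.

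Genes of the Y chromosome were measured in every array. Eif2s3y read 11.89 to 12.43 in WT and 12.24 to 12.52 in KO and was not called (0.15, adjusted p = 0.272). Kdm5d and Uty, also on the Y chromosome, rose by 0.45 (SE 0.09, adjusted p = 0.0157) and 0.55 (SE 0.10, adjusted p = 0.0125), but their further probe sets ranged from −0.24 to −0.08 and from −0.32 to 0.90. Xist, the RNA of the inactive X chromosome, lay between 5.01 and 6.74 on all arrays.

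Changed genes were spread over all chromosomes. Their share ranged from 5.63% on chromosome 7 (26 up, 41 down of 1191) to 10.6% on chromosome 18 (23 up, 17 down of 376), with 10.3% on the X chromosome (33 up, 15 down of 466), all below the 12.6% of chromosome 1; the 6 Y genes, with 2 calls, were too few to place. Of 14231 pairs of neighbouring tested genes, both were called in 108, and in 65 of these (60.2%) they moved the same way, while 54.8% of all neighbouring pairs had the same sign. Among such pairs, Tmem64 on chromosome 4 lies beside Necab1, which rose by 0.43 (SE 0.10, adjusted p = 0.0256), and Rbm12b2, on the same chromosome, beside its copy Rbm12b1, which rose by 0.47 (SE 0.11, adjusted p = 0.0252). The calls of Necab1 and Rbm12b1, both named after their values were seen, were lost with the block (adjusted p = 0.0516 for each) and without WT-N1, KO-N3 or WT-H1. They were also lost with the mean of all probe sets of a gene (adjusted p = 0.879 and 0.75). The other probe set of Rbm12b1 was lower in KO, at −0.38.

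**Figure D4:**
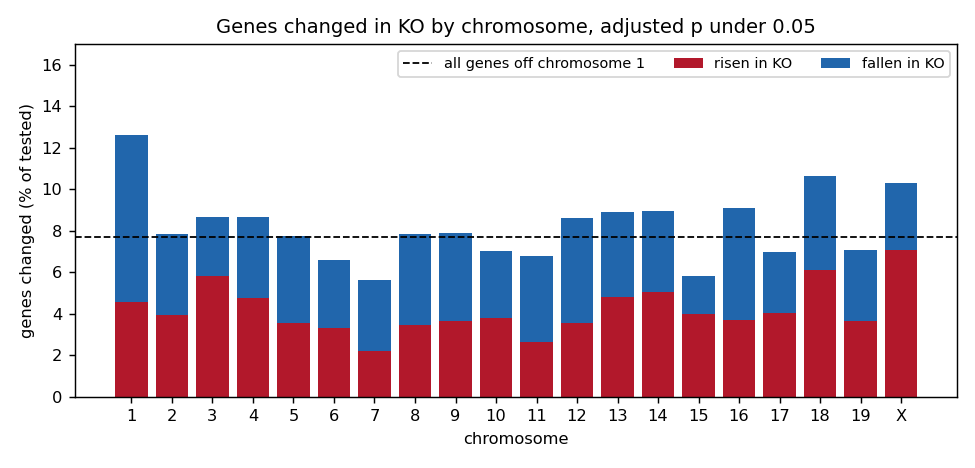
Share of tested genes per chromosome, in percent, that rose (red) or fell (blue) in KO at an adjusted p under 0.05; the dashed line is the share of all genes off chromosome 1, 7.71%. Chromosome 1 is shown for comparison at 12.6%, and the other chromosomes lie between 5.63% and 10.6%.

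The direction of the changes varied with signal level. Among the 3563 dimmest genes (mean log2 value 4.57 to 7.03) 38 rose and 45 fell (2.33%). Among the next 3563, up to 9.32, 74 rose and 191 fell, and the median difference of all its genes was −0.12. Among the 3563 brightest (11.1 to 14.96) 274 rose and 106 fell (10.7%), with a median of 0.

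Other probe sets of the same gene gave a further reading that did not enter the calls. Their places on the transcripts were not known, so they may not read the same RNA as the brightest one. Of the 562 genes that rose, 425 had further probe sets above the filter; at an unadjusted p under 0.05, another one was higher in 143 genes and another one was lower in 153. Of the 537 genes that fell, 276 had further probe sets, and another one was lower in 121 and higher in 39. A gene with several further probe sets can count on both sides. The brightest probe sets of Zfp982, Prss23, Cntn3, Defa31 and Ppif, among the largest rises, have names ending in x_at. So do those of Mcm4, Hadhb, Nnt, Cxcl1, Mdh1, Atp5o and others. Whether these sets also read other transcripts was not tested. The 899 further probe sets of the risen genes had a median difference of −0.01, and 431 of them were higher in KO. The 495 of the fallen genes had a median of −0.08, and 323 were lower in KO. When all probe sets of a gene were averaged instead of using the brightest, 267 genes rose and 426 fell, 38.5% risen against 51.1%.

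**Figure D5:**
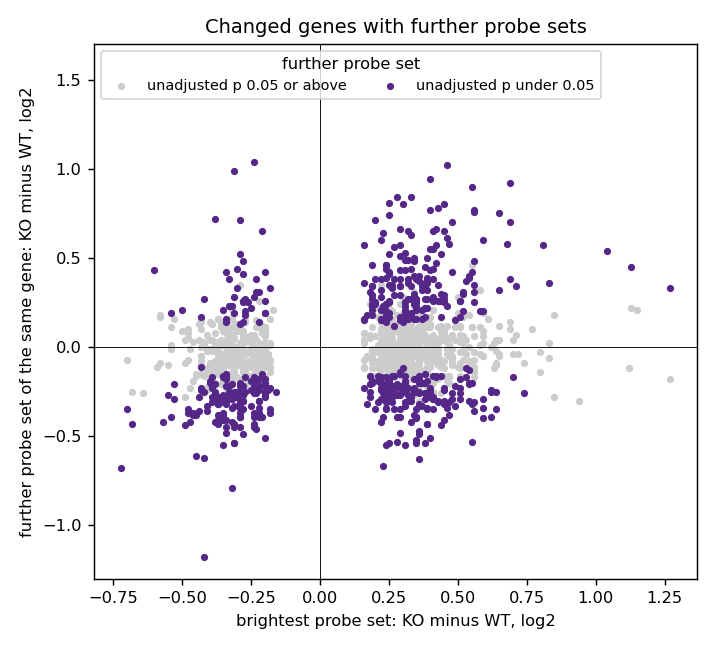
Difference between KO and WT on the log2 scale at the brightest probe set of a changed gene (horizontal) and at each further probe set of that gene (vertical; purple where its unadjusted p was under 0.05). Points of the fallen genes on the left lie mostly below 0 (323 of 495), while those of the risen genes on the right lie on both sides (431 of 899 above 0).

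Of the large changes described above, Matn2, Prss23, Trim23, Cat, Tmprss2, Hpgd, Cap1 and Acer2 had every further probe set on the same side as the brightest one. In Cntn3, Zfp2, Cttnbp2, Ppif and Taf15 the only other probe set was on the opposite side, at −0.30, −0.09, −0.12, −0.26 and 0.43, as in Insm1 and Tshz1, and both others of Hspa14 were too. With the mean of all probe sets of a gene, calls were lost in Cntn3 (adjusted p = 0.14), Serpinb1a (0.0834), Zfp2 (0.0729) and Ppif (0.052) among the largest rises. Among the largest falls they were lost in Tmprss2 (0.0546), Ttc5 (0.266), Taf15 (0.542), Dact3 (0.368), B3gat1 (0.46) and Cd86 (0.0901). Among others, the same held for Sesn1 (0.205), Derl1 (0.862), Hadhb (0.153), Mdh1 (0.45), Gclm (0.0713), Nnt (0.0608), Gad1 (0.117) and Cxcl1 (0.155). It held too for Stard4 (0.398), Igfbp3 (0.326), Nmnat3 (0.0575), Ifnar2 (0.0546), Kdm5d (0.719), Uty (0.0549), Rbm12b1 (0.75) and Necab1 (0.879).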

How the data were processed

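Trizol RNA, 4 µg per sample, was labelled with biotin for 12 Affymetrix mouse genome arrays, per the labels' protocols. The deposited values are log2 RMA values, per probe set and array (range 2.6 to 15.3); per the submitters' processing notes they were made with RMA and Partek 6.6. The options used are not stated there. RMA equalises the arrays' distributions, so a shift of most genes 1 way would be hidden. Signal takes the place of depth: 75.9% to 77.3% of probe sets per array were above 5.

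Of 45101 probe sets, 64 were controls, 34945 named 1 symbol in the platform annotation, 932 several and 9160 none there; 34741 matched RefSeq (GRCm38.p6) by Entrez ID, which gave the chromosome. Each gene was represented by its brightest probe set on average, and genes not above 5 on at least 3 arrays were left out. Limma 3.58.1 in R 4.3.3 fitted genotype and diet to all 12 arrays (9 residual degrees of freedom), and a fit with 1 coefficient per group gave the values within a diet and the interaction. Tests were two-sided with Benjamini-Hochberg adjustment over all 15237 genes; the median SE was 0.09. The fit was tested on simulated data. Labels give all arrays the same run date, so no batch was fitted.

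Arrays of KO mice that share a number across the diets deviated from their groups together, with r = 0.29, 0.38 and 0.14 for numbers 1, 2 and 3. They were therefore paired in an alternative fit (duplicateCorrelation, correlation 0.332); the labels do not explain the numbers, and no other 2 groups were paired in this way. Alternatives were other scalings, filters, probe set rules, variance priors and each array left out.

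Named genes are the 15 largest rises and 15 largest falls among called genes whose genotypes did not overlap within either diet, and up to 4 called members of each list, or the 1 with the smallest p; clone-type symbols were skipped. The members and lists were chosen with earlier results of these data known, so no list count is independent support. Some list genes were not analysed here. Figures used matplotlib 3.10.9 in Python 3.11.15.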

Additional observations from a re-analysis of the deposited data

Results flagged for a closer look

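In 10 of 164 groups of 6 arrays (6.10%), 1 array of a genotype stood far from the other 5, measured as its gap to the nearest array over the group's whole range, above Dixon's critical value for 6 arrays; chance gives about 1 in 20. The groups share the same arrays and are not independent. The ratio was 0.745 for Cd86, 0.715 for Nfkb2, 0.682 for Glrb, 0.672 for Gclm, 0.645 for Pfkl, 0.639 for Sort1, 0.634 for Pfkm and 0.627 for Nr1d1 among the KO arrays, and 0.690 for Lmo4 and 0.689 for Bcl6 among the WT arrays. For Cd86, Pfkl, Sort1, Pfkm and Nr1d1 the array that stood apart was KO-H3, which also scored highest on the first principal component. It was KO-H1 for Nfkb2, KO-N3 for Glrb, KO-N1 for Gclm, WT-H3 for Lmo4 and WT-N1 for Bcl6. Sort1, Nr1d1, Lmo4 and Bcl6 were not called, at adjusted p-values of 0.106, 0.0971, 0.107 and 0.0667, and the others were.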

How the results depend on the processing

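Against 1099 genes (562 up, 537 down), the replicate number as a fixed block gave 628 (366 up, 262 down) and the KO pairs as a random block 462 (304 up, 158 down). Cyclic loess gave 278 falls, centring each array on its median 888 rises and 192 falls, the mean of all probe sets 693 genes with 267 rises, and array weights 867 falls. Leaving out 1 array gave 314 to 2402 genes, 221 to 907 rises and 93 to 1495 falls. Without both arrays that stood apart, a setting added after seeing the data, 1850 genes were called, with 1134 falls. The other alternatives run kept each count within 1.5 times, and the interaction gave 0 calls in each setting it was fitted in. Of 88 named genes with a call, 25 kept it in all 24 settings. The number of named calls lost was largest without KO-N3 (41), WT-N1 (39), WT-N3 or WT-H3 (35 each) and KO-H3 (34), then KO-N1 (30), WT-H1 (29), KO-N2 (28) and WT-N2 (21), and smallest without KO-H2 (10), KO-H1 (7) and WT-H2 (1). With the mean of all probe sets, the differences of Insm1, Tshz1 and Acss2 became 0.00, −0.03 and −0.04, since their further probe sets were lower; that of Xist, not called, ranged from −0.32 to 0.13 with 1 array left out, and was above 0 without WT-H3. Of 768 list medians under alternatives, 18 moved beyond the spread between arrays, 12 of them under another scaling. Where not stated, the cause was not tested. Values near the lower end of the scale understate differences, and 3 arrays a group limit the precision.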

Other observations

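Genes with a zinc finger symbol (Zfp) were looked at after the values were seen. Of 321 tested, 40 rose (12.5%) and 8 fell (2.49%), where 3.94% of all genes off chromosome 1 rose and 3.77% fell. After cyclic loess 51 rose (15.9%, against 4.59% of all genes) and 4 fell (1.25%, against 1.95%). After centring each array on its median, 58 of 320 rose (18.1%, against 6.22%) and 4 fell (1.25%, against 1.35%). With the mean of all probe sets, 25 of 316 rose (7.91%, against 1.93%) and 9 fell (2.85%, against 3.08%). With the KO pairs as a block, 24 rose (7.48%, against 2.13%) and 2 fell (0.623%, against 1.11%). The median difference of the Zfp genes was 0.01. Of 278 solute carriers 12 rose (4.32%) and 7 fell (2.52%), and of 41 ribosomal protein genes 1 rose (2.44%) and 0 fell.

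A few further genes with large differences were picked after their values were seen. Gal, the neuropeptide galanin, read 8.27 to 9.69 in WT and 9.17 to 11.12 in KO (log2 0.97, SE 0.26, adjusted p = 0.0445, and 0.0764 with the KO pairs as a block). Cckar, a cholecystokinin receptor of acinar cells, rose by 0.96 (SE 0.25, adjusted p = 0.0405, and 0.0827 with the block), by 1.39 on the normal and 0.53 on the high-fat diet. Tmed11, a cargo receptor of the early secretory pathway, rose 2.00-fold (SE 0.23 on the log2 scale, adjusted p = 0.0263, and 0.0582 with the block). Esm1, an endothelial proteoglycan, rose by 0.67 (SE 0.15, adjusted p = 0.0225), the opposite direction to the 3 endothelial markers that fell; its call was lost without WT-N1, WT-H3 or KO-H3 (adjusted p = 0.0501 to 0.0556).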
